A study of Mus musculus with 12 samples.

Results

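The genes described here are 10 mouse genes of MHC class I antigen presentation, chosen by name and not by their values: the heavy chains H2-K1 and H2-D1, their partner B2m, the peptide transporter and loading genes Tap1, Tap2 and Tapbp, the immunoproteasome genes Psmb8, Psmb9 and Psmb10, and the regulator Nlrc5. They are 10 of the 54100 features listed in all 12 count files, and each of the 10 was found in every file. RNA was measured by sequencing in 12 libraries, 2 in each of 6 groups, in a study of the kinase CK1α (encoded by Csnk1a1) and cGAS-STING signalling, the route by which DNA in the cytosol raises interferon.

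The first pair of groups is SSTC3, known as a small-molecule CK1α activator, against its solvent DMSO. The labels call these cells BMDM (bone marrow-derived macrophages) and give a different knockout name to each library: TREX1-KO and TREX2-KO with SSTC3, TREX3-KO and TREX4-KO with DMSO. Controls therefore carry a TREX knockout as well, and the labels do not say whether the number marks a gene or a clone. The second pair is CK1a overexpression against overexpression control, and the third is CK1a knockdown, by siRNA per the titles, against knockdown control, all 8 libraries in cells labelled MEF (mouse embryonic fibroblasts). Every library is labelled C57BL/6J, and no label gives a dose, a time, a construct, a passage or an siRNA sequence. Whether the 2 libraries of a group came from different cultures or mice is not said, so the p-values rest on a spread that may be technical.

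MHC class I molecules carry short peptides from proteins made inside the cell to its surface, where CD8+ T cells read them. Proteasomes cut the proteins, the transporter made of TAP1 and TAP2 moves the peptides into the endoplasmic reticulum, tapasin (Tapbp) holds the transporter against an empty heavy chain paired with β2-microglobulin (B2m), and the loaded complex leaves for the surface. Interferons are known to raise most genes of this route, through IRF factors and through NLRC5, an activator that works at the promoters of class I genes, and they exchange the catalytic proteasome subunits PSMB5, PSMB6 and PSMB7 for PSMB8, PSMB9 and PSMB10.

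In mm10, 7 of the 10 genes lie on chromosome 17: Tapbp (33915899 to 33929292), H2-K1 (33996017 to 34000347), Psmb9 (34181987 to 34187764), Tap1 (34187553 to 34197225), Psmb8 (34197721 to 34201454), Tap2 (34203527 to 34216321) and H2-D1 (35262730 to 35267499). H2-K1 and Psmb9 are on the minus strand there and the other 5 on the plus strand. B2m lies on chromosome 2 (122147686 to 122153083, plus strand), and Nlrc5 (94434356 to 94527272, plus strand) and Psmb10 (105935735 to 105938444, minus strand) lie on chromosome 8. Exons of Tap1 and Psmb9 overlap by 212 bases on opposite strands, which is 5.8% of the exonic bases of Psmb9, and the strand setting of the counting is not given in the sources used here. Of all 150-base stretches of H2-D1 transcripts, 1.35% also occur, on the transcribed strand, in H2-Q1, and no stretch of that length of the other 9 genes occurs in a transcript of another gene read on its own strand. Overlaps on the opposite strand, given next, are not covered by that count. Genes on the other strand also overlap. Gm19412, with at most 0.103 CPM in any library, covers 24.9% of the exonic bases of Tapbp, and Gm20496, with at most 1.74 CPM, 14.7% of those of Psmb8. Zbtb22, on the same strand as Tapbp, shares 149 exonic bases with it and had 14.7 to 47.4 CPM, against 119 to 974 CPM for Tapbp. Gm15821 covers 14.1% of the exonic bases of Tap2, with at most 4.38 CPM.

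Promoter stretches are shown for H2-K1, H2-D1, B2m and Tap1 because the 2 heavy chains moved together in the data below while their partner and the transporter gene moved by other amounts. They come from RefSeq (GRCm38.p6), in windows of 250 bases before to 50 after each listed gene start, which were found for 8 of the 10 genes. Each is printed 5′ to 3′ on the gene's own strand, from 10 bases before the first match to 10 after the last or to the window's end, with matches to 4 motifs in capitals. The motifs, on either strand, were the interferon response type element GAANNGAAA, the STAT-type GAS element TTCNNNGAA, the CCAAT box and the CRE half-site TGACG. These stretches are chr17:34000325-34000447 (minus strand), chr17:35262934-35263055, chr2:122147599-122147736 and chr17:34187324-34187484 (plus strand for the last 3).
H2-K1: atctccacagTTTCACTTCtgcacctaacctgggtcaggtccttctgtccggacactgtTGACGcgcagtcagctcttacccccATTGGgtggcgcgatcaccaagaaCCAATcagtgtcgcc
H2-D1: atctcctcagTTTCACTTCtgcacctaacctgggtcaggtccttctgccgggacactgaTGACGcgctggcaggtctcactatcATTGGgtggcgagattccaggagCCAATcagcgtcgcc
B2m: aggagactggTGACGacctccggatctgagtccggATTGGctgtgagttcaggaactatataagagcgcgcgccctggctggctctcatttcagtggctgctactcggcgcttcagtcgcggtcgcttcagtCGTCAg
Tap1: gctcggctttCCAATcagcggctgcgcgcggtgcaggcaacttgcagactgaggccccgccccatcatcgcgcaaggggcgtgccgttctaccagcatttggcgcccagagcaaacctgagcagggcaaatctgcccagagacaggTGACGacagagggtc

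The heavy chain promoters share the order of their matches. Their windows were identical at 180 of 254 bases compared (70.9%) at the best ungapped shift. The matches of these 2 windows, also in the counts below, are therefore not independent. In H2-K1 and in H2-D1 the interferon type element begins 49 bases before the CRE half-site, and the half-site begins 25 bases before a CCAAT box on the other strand. B2m has the same spacing of 25 bases between its first half-site and its CCAAT box. The B2m window has no match to GAANNGAAA. It does hold GAAACTGAAA, upstream of the printed stretch, a spacing that was not searched for. Matches to GAANNGAAA were found in 2 of the 8 windows (H2-K1 and H2-D1), and in 7.52% of 32851 promoter windows of the same length. Other spacings of the interferon type element were not counted. The GAS element was found in 1 of the 8, that of Psmb8, and in 8.30% of all windows. CCAAT boxes were found in 6 of the 8 windows and in 37.4% of all, and CRE half-sites in 5 of the 8 and in 20.8% of all. The Tap1 and Psmb9 windows share 275 bases, read in opposite directions, so their matches are not independent. A match is a description of letters and does not show that a factor binds.

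Library totals ran between 16063627 and 19427506 counts, with a count above 0 for 20266 to 22950 genes. CPM below are counts scaled to the library total, and adjusted p-values come from edgeR's quasi-likelihood F test with Benjamini-Hochberg adjustment over all genes tested in a comparison, with a threshold of 0.05. Errors of log2 fold changes are standard errors (SE), with 2 libraries per group. Csnk1a1 was read as a check of the labels. It was lower in CK1a knockdown libraries (172 and 169 CPM, against 325 and 354 CPM in knockdown controls, log2 fold change −0.96 ± 0.05, adjusted p = 2.88e-27). Libraries labelled CK1a overexpression held 229 and 244 CPM of it, overexpression controls 238 and 235 CPM (−0.01 ± 0.04, adjusted p = 0.901), so the direction of that comparison rests on the label. With SSTC3 it had a log2 fold change of 0.07 ± 0.04 (adjusted p = 0.111).

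The cell labels were set against markers. In the libraries labelled BMDM, 21 macrophage markers summed to 13.8 to 14.1 CPM with SSTC3 and 10.7 to 10.8 CPM with DMSO, with Adgre1, Itgam, C1qa, C1qb, C1qc, Tyrobp, Cybb, Aif1 and Ctss at 0 counts in all 4. Their 14 fibroblast markers summed to 6136 to 6283 CPM with SSTC3 and 7537 to 7831 CPM with DMSO. The label BMDM thus goes against the markers, and the cells are called the SSTC3 set here. The overexpression set had fibroblast sums of 2998 to 3233 CPM, and the knockdown set of 1353 to 1552 CPM. In these MEF-labelled sets Lum was at 0 counts in every library, and Dcn in all but CK1a overexpression replicate 2. In the SSTC3 set Lum was at 0 in all but DMSO replicate 1. For macrophage markers the overexpression set had sums of 21.3 to 23.6 CPM. In the knockdown set these were 324 to 326 CPM in CK1a knockdown and 270 to 277 CPM in knockdown control, of which Cd68 made up 295 to 296 CPM and 246 to 252 CPM. C1qa, C1qb and C1qc were at 0 in all 12 libraries. T and NK cell markers summed to at most 0.392 CPM and B cell markers to at most 2.05 CPM in any library, and dendritic cell markers to at most 18.2 CPM, of which Zbtb46 made up 15.2 CPM. Endothelial markers summed to at most 3.30 CPM and epithelial markers to at most 2.83 CPM. Some markers moved with the groups. Of the fibroblast markers tested, 8 of 12 were lower and 2 higher with SSTC3, 6 of 9 lower in overexpression, and 4 of 9 lower and 1 higher in knockdown. Over all genes tested, 53.6% were called in either direction with SSTC3, 13.3% in overexpression and 54.7% in knockdown. The share of fibroblast markers called was thus close to that of all genes in knockdown, and above it with SSTC3 and in overexpression. Pdgfra and Pdgfrb were lower with SSTC3 (log2 fold changes of −0.86 ± 0.12 and −0.79 ± 0.05, ± SE from edgeR, as for the markers that follow) and in knockdown (−0.96 ± 0.09 and −1.22 ± 0.05). At low counts, Epcam (2.99 ± 0.68, adjusted p = 5.31e-05) and Flt3 (2.31 ± 0.59, adjusted p = 0.00032) were higher with SSTC3, and Flt3 was lower in knockdown (−2.20 ± 0.70, adjusted p = 0.00573). Cd68 was higher in knockdown (0.28 ± 0.04, adjusted p = 1.77e-07). Others of the same lists went the other way there at low counts. Fcgr1 was lower (−2.75 ± 0.68, adjusted p = 0.00048) and Xcr1 higher (2.87 ± 0.88, adjusted p = 0.00454). Of the macrophage markers tested in knockdown, 2 of 5 were higher and 1 lower. Of the dendritic cell markers, 1 of 3 was higher and 1 lower. With SSTC3, 2 of 4 macrophage, 1 of 4 dendritic cell and 1 of 2 epithelial markers tested were higher, and 0 were lower. The other 3 dendritic cell markers did not pass with SSTC3 (Xcr1 −0.81 ± 0.53, Zbtb46 −0.07 ± 0.13, Batf3 0.35 ± 0.32). In bulk libraries such as these, fewer cells of a type and less RNA per cell cannot be told apart, and the part of cell composition in the results below was not tested.

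Before any comparison, the 3 sets stood at different levels of these genes, as the plot of CPM in the 12 libraries shows. In knockdown controls 9 of the 10 genes were higher than in DMSO libraries, by ratios of mean CPM of 3.07 (Tapbp) to 21.8 (Psmb9). The exception was Psmb10, with a ratio of 0.346. Against overexpression controls, the ratios ran between 2.33 (Tap1) and 45.7 (Nlrc5) for 8 genes, with Psmb10 at 0.351 and Psmb8 too low there for a ratio. No test was made across sets, since cells, files and label sets differ with them.

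**Figure D1:**
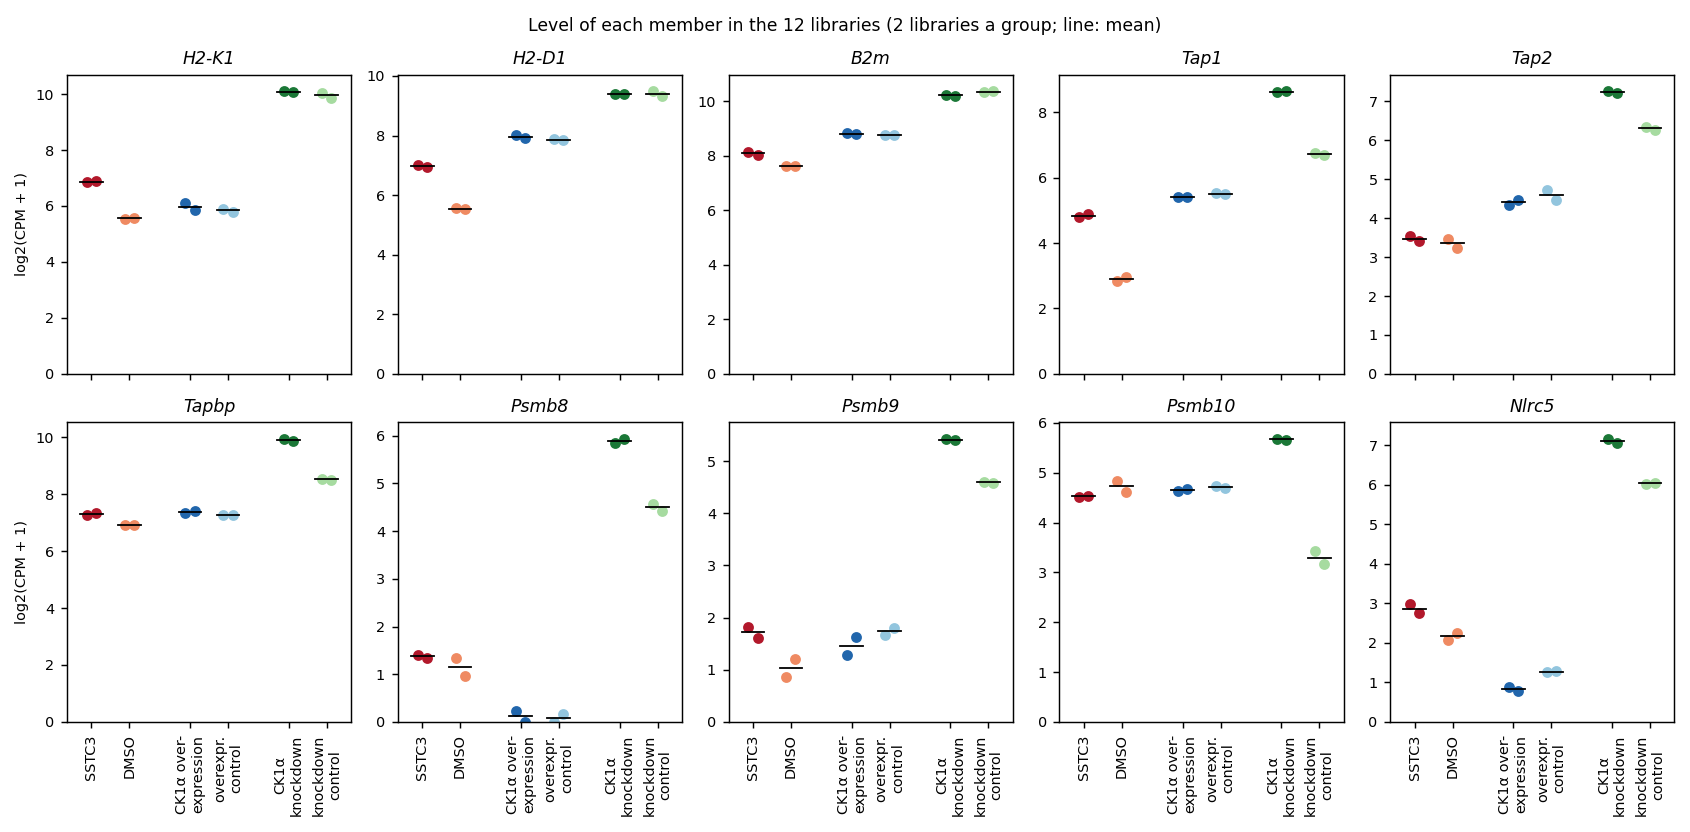
Level of each of the 10 genes in every library, as log2(CPM + 1), with CPM of the library total; points are libraries, lines are group means (n = 2), and axes start at 0 and differ between panels. The knockdown set is highest for 9 genes, and for Psmb10 its control libraries (7.96 and 9.71 CPM) are the lowest of all 12.

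Levels of different genes were set side by side per kilobase of exon, with all annotated exons of a gene merged. That length can exceed that of the transcript expressed (3381 bases for Psmb8, 860 for B2m). Places and ratios between genes per kilobase therefore depend on the annotation. On this scale B2m had the highest level of the 10 in all 6 groups, between 228 CPM per kb with DMSO and 1521 CPM per kb in knockdown control. The heavy chains and Tapbp filled the next 3 places in all 6 groups. The lowest place was taken by Psmb8 in 3 groups (SSTC3, CK1a overexpression and overexpression control), by Psmb9 in 2 (DMSO and CK1a knockdown) and by Psmb10 in knockdown control. The ratio of H2-K1 to H2-D1 per kilobase differed more between the sets than within them. It was 1.42 and 1.39 in CK1a knockdown and 1.30 and 1.26 in knockdown control, 0.784 and 0.845 with SSTC3 and 0.872 and 0.908 with DMSO, and 0.232 and 0.206 in CK1a overexpression and 0.222 and 0.210 in overexpression control. The lowest ratios thus came from the overexpression set, although every set is labelled with the same strain.

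SSTC3 against DMSO compares an activator of CK1α with its solvent in cells of the first set. No knockout name is shared by the 2 groups, so changes called with SSTC3 cannot be told apart from differences between the knockouts named. The heavy chains H2-K1 and H2-D1, their partner B2m, Tap1, Tapbp, Psmb9 and Nlrc5 rose, while Tap2, Psmb8 and Psmb10 did not pass the test. Of the 10 genes, 7 were called higher and 0 lower, and 27.1% of all 14151 genes tested were called higher and 26.5% lower (53.6% in either direction). The median log2 fold change of the 10 was 0.72, and that of all genes tested was 0.01. With library totals as the scaling, the split over all genes was 3290 higher and 4419 lower, against 3830 and 3749 with TMM factors, and the same 7 of the 10 genes were called, all higher.

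H2-K1, which encodes one of the classical heavy chains that present peptides, had 114 and 119 CPM with SSTC3, against 45.8 and 46.6 CPM with DMSO. Both SSTC3 libraries lay above both DMSO libraries, with a log2 fold change of 1.39 ± 0.06 (adjusted p = 4.09e-61). H2-D1, the other classical heavy chain, had 127 and 123 CPM with SSTC3, against 46.1 and 45.1 CPM with DMSO (1.51 ± 0.06, adjusted p = 9.9e-69). Its groups were as clearly apart as those of H2-K1. B2m, whose protein every class I heavy chain needs to fold, had 283 and 262 CPM with SSTC3, against 196 and 196 CPM with DMSO. It rose by less, by 0.53 ± 0.04 (adjusted p = 5.73e-27), again with no overlap of the libraries. Summed per kilobase, heavy chain transcripts therefore stood at 0.268 and 0.289 of the B2m level with SSTC3 and at 0.147 and 0.146 with DMSO.

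Of the transporter genes, Tap1 passed the test with SSTC3 and Tap2 did not. Tap1, which encodes the TAP1 chain of the peptide pump, had 26.6 and 28.4 CPM with SSTC3, against 6.10 and 6.83 CPM with DMSO. Its rise of 2.14 ± 0.13 (adjusted p = 1.24e-41) was the largest of the 10 in this comparison. Tap2, which encodes the other chain, had 10.5 and 9.67 CPM with SSTC3, against 10.03 and 8.43 CPM with DMSO. Those libraries overlapped, and the log2 fold change was 0.19 ± 0.15 (adjusted p = 0.306). Per kilobase, Tap1 stood at 1.74 and 2.03 times Tap2 with SSTC3 and at 0.420 and 0.559 times with DMSO. Tapbp, the loading chaperone tapasin, had 153 and 160 CPM with SSTC3, against 119 and 121 CPM with DMSO (0.44 ± 0.05, adjusted p = 6.47e-16), with the groups apart.

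The immunoproteasome genes were at low counts in these cells apart from Psmb10. Psmb9, which takes the place of Psmb6, had 2.53 and 2.06 CPM (43 and 35 counts) with SSTC3, against 0.821 and 1.31 CPM (14 and 22 counts) with DMSO. It was called higher, by 1.16 ± 0.37 (adjusted p = 0.00499), a call that ended with DESeq2 (adjusted p = 0.105), without SSTC3 replicate 1 (adjusted p = 0.1) and without DMSO replicate 1 (adjusted p = 0.0993). Psmb8, which takes the place of Psmb5, had 1.65 and 1.53 CPM with SSTC3, against 1.52 and 0.950 CPM with DMSO (0.41 ± 0.40, adjusted p = 0.394). Its SE is of the size of the change, so at 16 to 28 counts a library a change of that size was not detectable. Psmb10, which takes the place of Psmb7, had 21.9 and 22.1 CPM with SSTC3, against 27.6 and 23.5 CPM with DMSO (−0.16 ± 0.10, adjusted p = 0.168). Both SSTC3 libraries lay below both DMSO libraries for Psmb10, and without DMSO replicate 2 it was called lower (−0.28, adjusted p = 0.0442). Nlrc5 had 6.89 and 5.78 CPM with SSTC3, against 3.23 and 3.74 CPM with DMSO, a rise of 0.92 ± 0.21 (adjusted p = 7.04e-05) with no overlap.

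**Figure D2:**
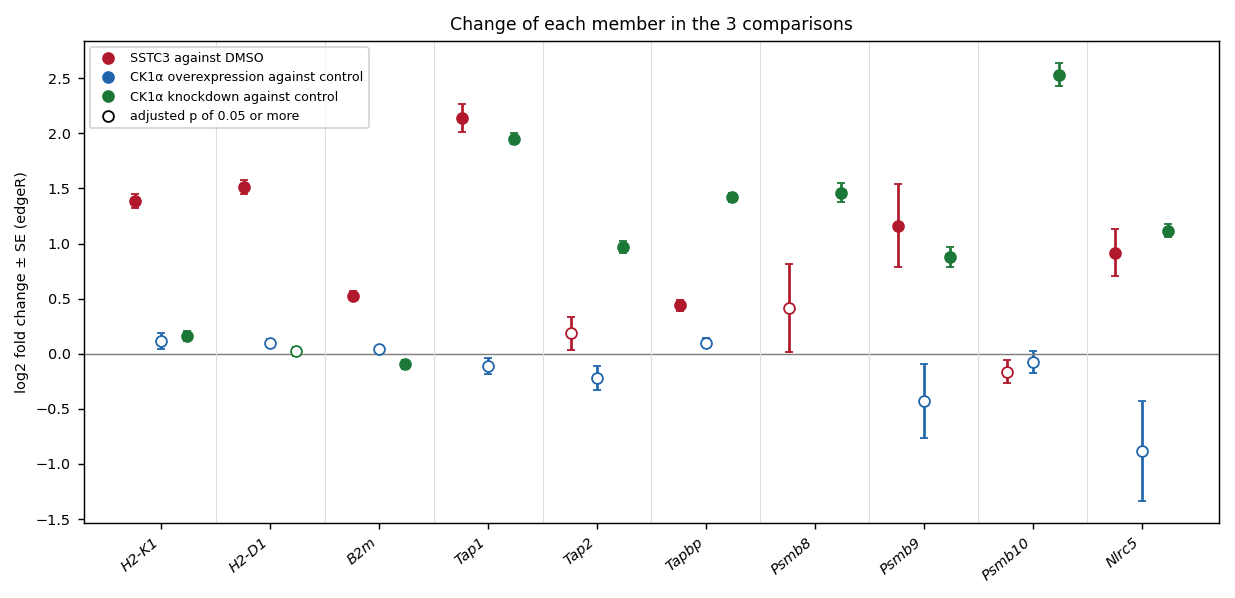
Log2 fold change ± SE (edgeR, n = 2 libraries per group) of each of the 10 genes with SSTC3 against DMSO, CK1a overexpression against its control and CK1a knockdown against its control; open circles had an adjusted p of 0.05 or more, and Psmb8 had too few counts in the overexpression set. H2-K1 and H2-D1 stand at 1.39 and 1.51 with SSTC3 and at 0.16 and 0.02 with knockdown, while Psmb10 stands at −0.16 with SSTC3 and 2.53 with knockdown.

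The second pair asks for the effect of added CK1α in MEF-labelled cells, with the limit that Csnk1a1 transcripts were not higher there. Of the 10 genes, 9 had enough counts to be tested, and 0 were called, where 13.3% of the 13958 genes tested were called (5.78% higher and 7.57% lower). At an unadjusted p under 0.05 there were 3, namely H2-D1, Tapbp and Tap2, and DESeq2 called 0 of the 10. Psmb8 had 3 and 0 counts in CK1a overexpression libraries, against 0 and 2 counts in overexpression controls, and was not tested.

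H2-K1 had 68.1 and 56.4 CPM in CK1a overexpression, against 59.0 and 54.5 CPM in overexpression control (0.12 ± 0.07, adjusted p = 0.322), with overlapping libraries. H2-D1 had 258 and 240 CPM in CK1a overexpression, against 233 and 228 CPM in overexpression control (0.10 ± 0.04, adjusted p = 0.0733). Its groups did not overlap, and the call depended on the processing. H2-D1 was called higher with library totals (0.11, adjusted p = 0.0342), and both heavy chains were called higher without CK1a overexpression replicate 2 (H2-D1 0.15, adjusted p = 0.00558; H2-K1 0.25, adjusted p = 0.0141). B2m had 451 and 447 CPM in CK1a overexpression, against 434 and 432 CPM in overexpression control (0.04 ± 0.03, adjusted p = 0.432).

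For the transporter and loading genes, Tap1 had 41.8 and 41.6 CPM in CK1a overexpression, against 45.0 and 44.4 CPM in overexpression control (−0.11 ± 0.07, adjusted p = 0.339). Tap2 had 19.3 and 21.0 CPM in CK1a overexpression, against 25.3 and 21.2 CPM in overexpression control (−0.22 ± 0.11, adjusted p = 0.181). Tapbp had 162 and 169 CPM in CK1a overexpression, against 153 and 154 CPM in overexpression control (0.10 ± 0.04, adjusted p = 0.102). In all 3 the groups did not overlap, and none of the differences passed. Psmb9 had 1.43 and 2.09 CPM in CK1a overexpression, against 2.19 and 2.50 CPM in overexpression control (−0.43 ± 0.34, adjusted p = 0.455). Psmb10 had 23.7 and 24.5 CPM in CK1a overexpression, against 25.5 and 24.9 CPM in overexpression control (−0.08 ± 0.10, adjusted p = 0.687). Nlrc5 had 0.833 and 0.715 CPM in CK1a overexpression, against 1.39 and 1.45 CPM in overexpression control. These are 14 and 12 counts in CK1a overexpression and 24 and 25 in overexpression control, and the log2 fold change of −0.88 ± 0.45 had an adjusted p of 0.207. A change of that size in Nlrc5 could thus not be told from no change at this depth.

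The third pair asks for the effect of a loss of CK1α in MEF-labelled cells. The immunoproteasome genes, the transporter genes, tapasin and Nlrc5 rose together, whereas heavy chain and B2m transcripts, which were the most abundant of the 10 per kilobase in knockdown controls, moved by 0.16 or less on the log2 scale. Of the 10 genes, 8 were called higher, 1 lower and 1 did not pass. Of all 14832 genes tested, 54.7% were called, 28.3% higher and 26.4% lower. The median log2 fold change of the 10 was 1.04, and that of all genes tested −0.01.

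Of the 10 genes, Psmb10 changed the most. Its level was 49.8 and 49.7 CPM in CK1a knockdown, against 9.71 and 7.96 CPM in knockdown control, a rise of 2.53 ± 0.11 (adjusted p = 1.84e-30). Psmb8 had 56.5 and 59.7 CPM in CK1a knockdown, against 22.8 and 20.5 CPM in knockdown control (1.46 ± 0.09, adjusted p = 5.6e-23). Psmb9 had 41.7 and 41.3 CPM in CK1a knockdown, against 23.3 and 23.1 CPM in knockdown control (0.87 ± 0.09, adjusted p = 7.9e-13). In all 3 the groups were apart by more than the range within either group. Tap1 had 390 and 396 CPM in CK1a knockdown, against 106 and 102 CPM in knockdown control (1.95 ± 0.05, adjusted p = 2.01e-43). Tap2 had 151 and 147 CPM in CK1a knockdown, against 80.2 and 75.7 CPM in knockdown control (0.97 ± 0.06, adjusted p = 1.89e-23), a smaller change than that of Tap1. The ratio of Tap1 to Tap2 per kilobase was 1.78 and 1.87 in CK1a knockdown and 0.915 and 0.932 in knockdown control. Tapbp had 974 and 948 CPM in CK1a knockdown, against 375 and 361 CPM in knockdown control (1.42 ± 0.04, adjusted p = 2.9e-39). Nlrc5 had 141 and 134 CPM in CK1a knockdown, against 64.4 and 65.5 CPM in knockdown control (1.12 ± 0.06, adjusted p = 1.26e-25), both again with separate groups.

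The molecules that are loaded moved little. H2-K1 had 1089 and 1067 CPM in CK1a knockdown, against 1055 and 926 CPM in knockdown control (0.16 ± 0.05, adjusted p = 0.00418), with no overlap. That call ended with DESeq2 (adjusted p = 0.181), with all 12 libraries in the fit (adjusted p = 0.19) and without knockdown control replicate 2 (0.06, adjusted p = 0.0505). H2-D1 had 674 and 672 CPM in CK1a knockdown, against 713 and 645 CPM in knockdown control (0.02 ± 0.04, adjusted p = 0.691), so that both knockdown libraries lay between the controls. Without knockdown control replicate 1 it was called higher (0.10, adjusted p = 0.00611). B2m had 1211 and 1176 CPM in CK1a knockdown, against 1302 and 1314 CPM in knockdown control, and was called lower (−0.10 ± 0.04, adjusted p = 0.0281). This call ended with no filter on low counts (adjusted p = 0.129), with a replicate block (adjusted p = 0.0565) and without either knockdown library (adjusted p = 0.158 without replicate 1 and 0.394 without replicate 2). Summed per kilobase, heavy chain transcripts stood at 0.449 and 0.456 of the B2m level in CK1a knockdown and at 0.420 and 0.370 in knockdown control.

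Within each catalytic pair of the proteasome, the share held by the interferon-inducible subunit was computed per kilobase of merged exons. The size of a share thus depends on the annotated lengths of the 2 genes. Psmb8 made up 18.3% and 19.2% of Psmb8 plus Psmb5 in CK1a knockdown, against 5.84% and 5.47% in knockdown control. Psmb9 made up 15.6% and 14.5% of Psmb9 plus Psmb6 in CK1a knockdown, against 7.35% and 8.10% in knockdown control. Psmb10 made up 46.8% and 47.4% of Psmb10 plus Psmb7 in CK1a knockdown, against 14.2% and 11.4% in knockdown control. All 3 shares were higher in CK1a knockdown than in any other group. In the SSTC3 and overexpression sets the Psmb8 and Psmb9 shares were at most 1.03%, while the Psmb10 share stood between 24.9% and 28.6% in those 8 libraries, above that of knockdown control. These are shares of transcripts and say nothing of assembled proteasomes, and with 2 libraries a group an exact two-sided permutation test of a share cannot go below p = 0.333.

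**Figure D3:**
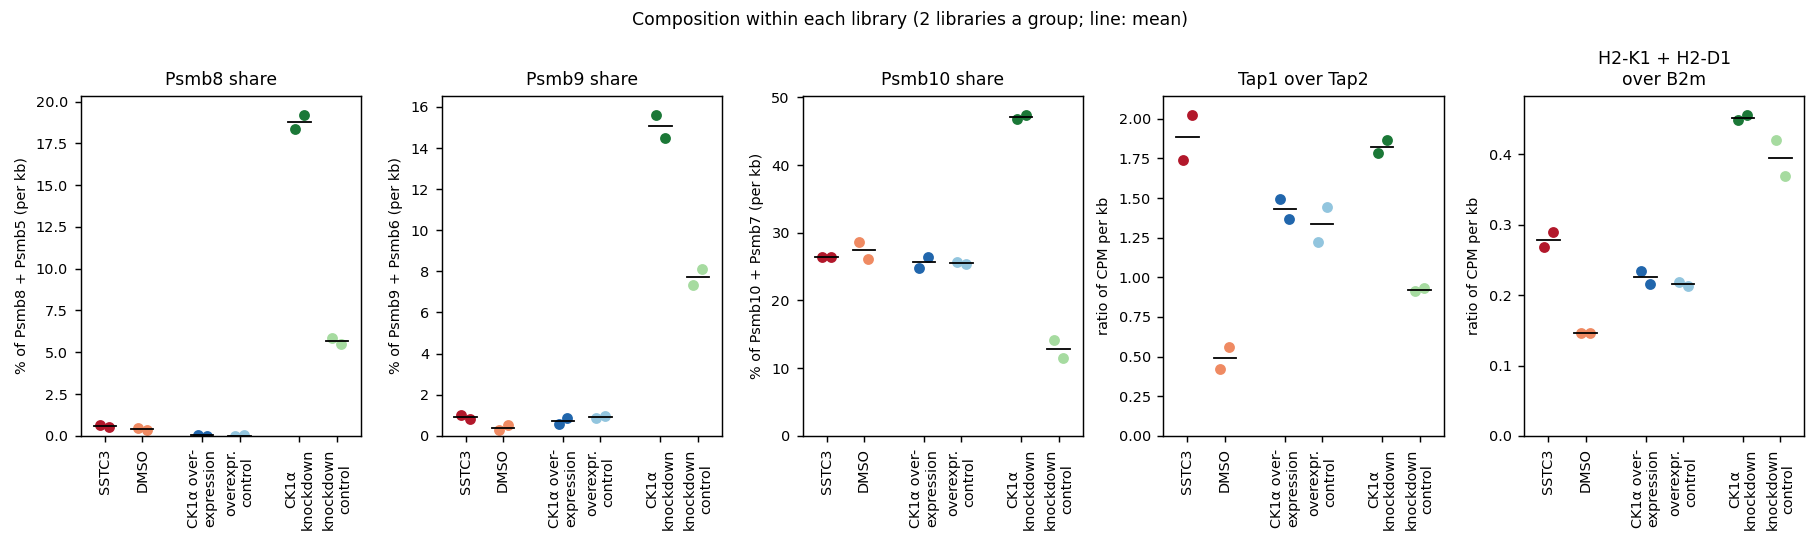
Composition within each library, from CPM per kilobase of exon; the first 3 panels give the percentage of Psmb8, Psmb9 and Psmb10 in each catalytic pair, the last 2 the ratio of Tap1 to Tap2 and of H2-K1 plus H2-D1 to B2m, with points for libraries and lines for group means (n = 2). The knockdown libraries are highest in the first 3 panels (Psmb10 46.8% and 47.4%), and Tap1 over Tap2 is higher with SSTC3 (1.74 and 2.03) than with DMSO (0.420 and 0.559) and higher in CK1a knockdown (1.78 and 1.87) than in knockdown control (0.915 and 0.932).

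Whether a gene's change differed between comparisons was tested with a contrast in 1 fit of all 12 libraries. Between knockdown and SSTC3, the changes of 7 of the 10 genes differed, where 45.1% of all 17105 genes tested did. The heavy chains and B2m had the smaller change in knockdown, by −1.26 ± 0.12 for H2-K1 (adjusted p = 5.71e-06), −1.52 ± 0.07 for H2-D1 (adjusted p = 1.46e-36) and −0.65 ± 0.05 for B2m (adjusted p = 8.41e-20). Psmb10, Tapbp and Tap2 had the larger change in knockdown, by 2.67 ± 0.15 (adjusted p = 5.08e-29), 0.95 ± 0.06 (adjusted p = 1.83e-26) and 0.75 ± 0.14 (adjusted p = 3.36e-06). For Psmb8 the difference of 1.02 ± 0.35 (adjusted p = 0.0124) did not pass without DMSO replicate 1 (0.65, adjusted p = 0.298). For Tap1 (−0.22 ± 0.12, adjusted p = 0.119), Psmb9 (−0.32 ± 0.32, adjusted p = 0.462) and Nlrc5 (0.17 ± 0.19, adjusted p = 0.495) no difference was detected, and the SE of Psmb9 leaves room for a sizeable one. Against overexpression, 8 of the 10 changes differed for SSTC3 (32.7% of all genes), the exceptions being Psmb8 and Psmb10, and 7 for knockdown (35.1% of all genes), the exceptions being H2-K1, H2-D1 and Psmb8.

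Other genes of the route were read from lists named in the methods. Among 19 other class I heavy chain genes, 9 were tested with SSTC3, of which 2 rose and 1 fell, and 13 with knockdown, of which 6 rose and 1 fell. The gene that fell with SSTC3 was Cd1d1 (−0.98 ± 0.27, adjusted p = 0.000755). The share called was below that of all genes with SSTC3 (53.6%) and close to it with knockdown (54.7%). H2-Q4, a class Ib gene, had the pattern of H2-K1 and H2-D1, with 17.2 and 15.8 CPM with SSTC3, against 6.22 and 4.81 CPM with DMSO (1.64 ± 0.15, adjusted p = 1.34e-21). CK1a knockdown libraries had 223 and 225 CPM of H2-Q4, and knockdown controls 222 and 224 CPM (0.04 ± 0.05, adjusted p = 0.447). Knockdown minus SSTC3, the difference was −1.62 ± 0.15 (adjusted p = 1e-12). H2-T22, another class Ib gene, had 180 and 180 CPM in CK1a knockdown, against 68.4 and 63.0 CPM in knockdown control (1.49 ± 0.06, adjusted p = 5.6e-33). SSTC3 libraries had 61.2 and 61.0 CPM of it, and DMSO libraries 50.6 and 46.2 CPM (0.39 ± 0.07, adjusted p = 1.84e-07), so here knockdown had the larger change (difference 1.07 ± 0.09, adjusted p = 9.87e-19). H2-T24 (0.96 ± 0.09) and H2-T23 (0.66 ± 0.13) rose in knockdown as well, and Fcgrt, the neonatal Fc receptor heavy chain, fell (−0.30 ± 0.06, adjusted p = 2.59e-05). In the overexpression comparison 11 were tested, with 0 higher and 1 lower, Fcgrt again (−0.18 ± 0.06, adjusted p = 0.0278). Over all genes 13.3% were called there.

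Of 7 further proteasome genes, all were tested in each comparison. In knockdown 3 rose and 2 fell, where 54.7% of all genes tested were called. With SSTC3 2 rose and 0 fell, where 53.6% of all genes were called. In knockdown the proteasome activator genes Psme1 (1.38 ± 0.07, adjusted p = 1.98e-27) and Psme2 (1.55 ± 0.08, adjusted p = 1.03e-25), whose PA28 cap is interferon-inducible, rose with Psmb8 to Psmb10. Psme3, which encodes the nuclear cap PA28γ, rose by 0.23 ± 0.05 (adjusted p = 2.32e-05). The constitutive catalytic genes went the other way in knockdown, with Psmb5 lower (−0.49 ± 0.06, adjusted p = 6.91e-10) and Psmb6 lower (−0.21 ± 0.06, adjusted p = 0.0013), while Psmb7 (−0.07 ± 0.05, adjusted p = 0.274) and the assembly factor Pomp (0.03 ± 0.05, adjusted p = 0.655) did not pass. With SSTC3 the cap genes Psme2 (0.18 ± 0.08, adjusted p = 0.0453) and Psme3 (0.15 ± 0.04, adjusted p = 0.00276) rose, and Psme1 (0.04 ± 0.06, adjusted p = 0.633), Psmb5 (−0.07 ± 0.06, adjusted p = 0.359), Psmb6 (−0.11 ± 0.05, adjusted p = 0.0504), Psmb7 (−0.09 ± 0.05, adjusted p = 0.134) and Pomp (0.08 ± 0.05, adjusted p = 0.204) did not pass. In overexpression, Psme3 alone of the 7 was called (0.19 ± 0.04, adjusted p = 0.000165), where 13.3% of all genes were. The other 6 lay between −0.13 (Psmb5) and 0.20 (Psme2) there.

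Of 10 genes of peptide loading and trimming, 5 rose and 1 fell with SSTC3, and 6 rose and 1 fell with knockdown. In either direction 6 of the 10 were called with SSTC3, against 53.6% of all genes, and 7 of the 10 with knockdown, against 54.7% of all genes. Calr, the chaperone calreticulin of the loading complex, had 1542 and 1564 CPM with SSTC3, against 1021 and 1033 CPM with DMSO (0.65 ± 0.03, adjusted p = 3.25e-51). Pdia3, its disulphide isomerase partner ERp57, rose by 0.42 ± 0.04 with SSTC3 (adjusted p = 2.09e-25) and fell by 0.25 ± 0.04 in knockdown (adjusted p = 7.72e-08). In knockdown the largest rise of this list was Lap3, the interferon-inducible leucine aminopeptidase, with 0.97 ± 0.05 (adjusted p = 8.24e-25). In overexpression 0 of the 10 rose and 1 fell, Lap3 (−0.13 ± 0.04, adjusted p = 0.0179), where 13.3% of all genes were called.

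Among 17 regulators of class I genes, 15 were tested in each comparison. In knockdown 9 rose, 2 fell and 4 did not pass, with SSTC3 8 rose, 3 fell and 4 did not pass, and with overexpression 4 rose and 1 fell. Of all genes tested, 54.7% were called with knockdown, 53.6% with SSTC3 and 13.3% with overexpression. Irf1, an interferon-inducible activator of class I genes, had 234 and 240 CPM in CK1a knockdown, against 64.9 and 66.6 CPM in knockdown control (1.89 ± 0.05, adjusted p = 5.53e-40). Irf1 rose with SSTC3 too (0.62 ± 0.08, adjusted p = 2.68e-12). Irf9, an interferon-activated factor, rose by 1.95 ± 0.06 in knockdown (adjusted p = 5.61e-37) and by 0.28 ± 0.09 with SSTC3 (adjusted p = 0.00554).

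The NF-κB subunit gene Rela and the inhibitor gene Socs1 changed with SSTC3 and did not pass in knockdown. Rela had 371 and 401 CPM with SSTC3, against 196 and 192 CPM with DMSO (1.05 ± 0.04, adjusted p = 1.99e-71), and −0.09 ± 0.05 in knockdown (adjusted p = 0.108). Nfkb1 rose by 0.50 ± 0.04 with SSTC3 (adjusted p = 5.47e-25) and by 1.62 ± 0.05 in knockdown (adjusted p = 1.54e-38). Socs1, which restrains JAK-STAT signalling, had 29.0 and 24.9 CPM with SSTC3, against 7.86 and 7.90 CPM with DMSO (1.83 ± 0.12, adjusted p = 6e-35). CK1a knockdown libraries had 88.3 and 88.3 CPM of Socs1, against 86.5 and 87.5 CPM in knockdown control (0.06 ± 0.06, adjusted p = 0.448). Knockdown minus SSTC3, the difference was −1.18 ± 0.06 for Rela (adjusted p = 2.3e-29) and −1.80 ± 0.13 for Socs1 (adjusted p = 3.24e-22). Nfyb, a subunit of the CCAAT-binding factor, rose by 0.81 ± 0.07 with SSTC3 (adjusted p = 1.51e-22) and was lower in knockdown (−0.33 ± 0.10, adjusted p = 0.00335), with a difference of −1.17 ± 0.11 (adjusted p = 1.57e-15).

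**Figure D4:**
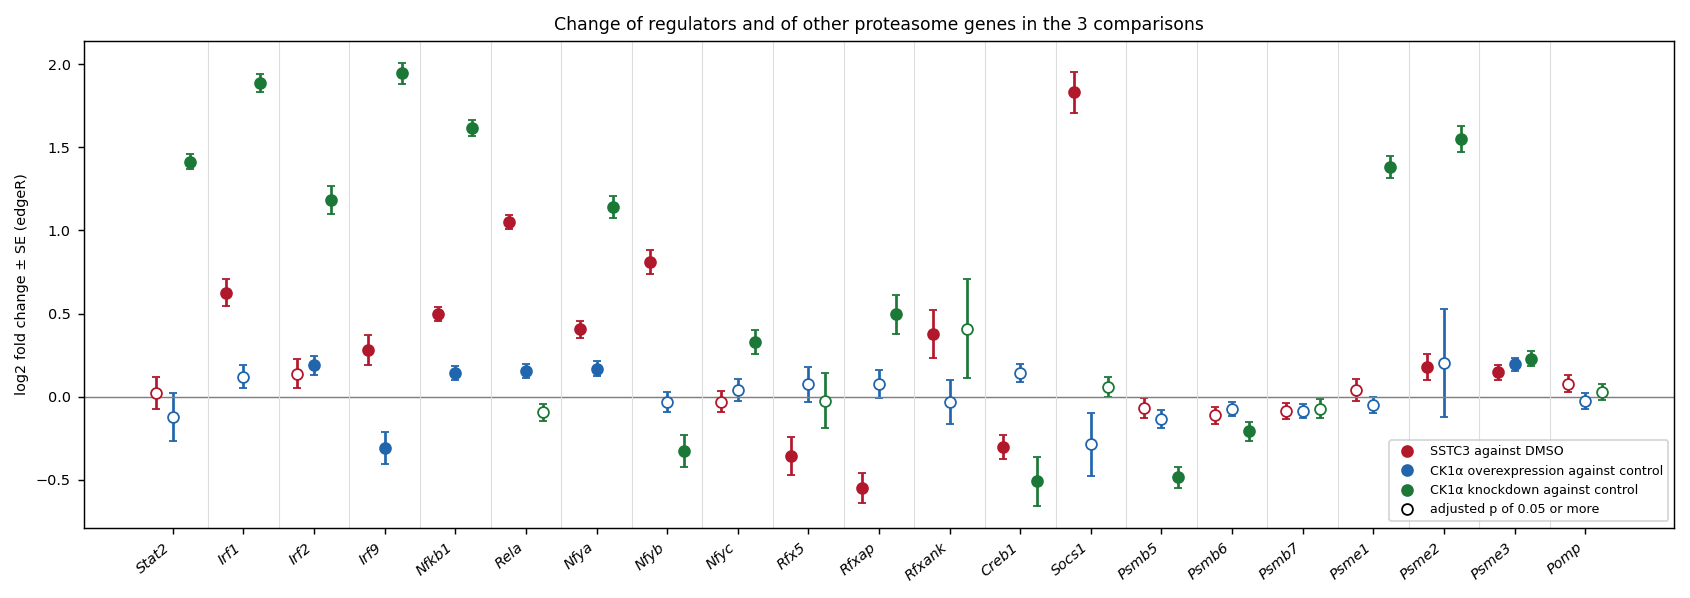
Log2 fold change ± SE (edgeR, n = 2 libraries per group) of 14 regulators and 7 further proteasome genes with SSTC3, CK1a overexpression and CK1a knockdown, each against its control; open circles had an adjusted p of 0.05 or more. Irf1 stands at 1.89 with knockdown and 0.62 with SSTC3, Rela at 1.05 with SSTC3 and −0.09 with knockdown, and Psme1 and Psme2 at 1.38 and 1.55 with knockdown.

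Of 9 interferon genes and receptor components, Ifng had 0 counts in all 12 libraries. Ifnb1, which encodes interferon β, had 6.74 and 5.68 CPM in CK1a knockdown, against 12.5 and 14.7 CPM in knockdown control. Its log2 fold change was −1.10 ± 0.16 (adjusted p = 1.63e-08), the opposite direction to 8 of the 10 genes above. In the SSTC3 and overexpression sets Ifnb1 had at most 0.346 CPM in any library, so the knockdown set, whose 2 groups exceeded the other sets in 9 of the 10 genes, was the one with more than a trace of it. The part of Ifnb1 in those levels was not tested. With SSTC3, where 27.1% of all genes were called higher, 5 of the 7 tested rose and 0 fell, among them the receptor chain Ifngr2 (1.12 ± 0.08, adjusted p = 2.15e-34) and the kinase Jak2 (1.00 ± 0.07, adjusted p = 6.54e-33). In knockdown 3 of 8 rose and 2 fell, among them the receptor chain Ifnar2 (0.94 ± 0.10, adjusted p = 3.25e-13), and in overexpression 0 of 7 were called. Over all genes 54.7% were called in knockdown and 13.3% in overexpression.

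Genes of MHC class II, which presents peptides from outside the cell, were read as a contrast to class I. H2-Aa and H2-Ab1, the chains of a classical class II molecule, and Ciita, the class II counterpart of Nlrc5, had too few counts to be tested in any comparison. Cd74, the invariant chain, had 272 and 262 CPM in CK1a knockdown, against 365 and 360 CPM in knockdown control (−0.41 ± 0.04, adjusted p = 2.42e-12). SSTC3 libraries had 9.54 and 9.85 CPM of Cd74, and DMSO libraries 4.40 and 4.10 CPM (1.24 ± 0.18, adjusted p = 2.53e-10), so its direction differed from that of the loading genes in knockdown and matched that of the heavy chains with SSTC3. H2-DMa, a chain of the class II loading chaperone H2-DM, was called lower in knockdown (−0.85 ± 0.12, adjusted p = 2.92e-08) and in overexpression (−0.55 ± 0.17, adjusted p = 0.023). H2-DMb1, the other chain, did not pass in knockdown (0.34 ± 0.17, adjusted p = 0.0792) or in overexpression (0.06 ± 0.11, adjusted p = 0.804). Of the class II genes tested, 1 of 3 was higher with SSTC3, 2 of 4 lower in knockdown and 1 of 4 lower in overexpression. Over all genes, 53.6%, 54.7% and 13.3% were called.

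Across the 12 libraries, 9 of the 10 genes followed their common mean of log2(CPM + 1), with Pearson r between 0.876 (H2-D1) and 0.989 (Tapbp), and Psmb10 did not (r = 0.147). Each gene is part of that mean, and the libraries fall into 3 sets, so these values describe the sets and carry no test. Of 11215 other genes with a mean of at least 4 CPM, those most like the mean were Chpf, a chondroitin sulphate polymerase gene (r = 0.996), Zc3hav1 (0.994), Zbp1 (0.993), Ifi204 (0.993) and Trim21 (0.991). The last 4 are known as interferon-inducible genes. Trim21, for example, averaged 172 CPM in CK1a knockdown against 45.8 CPM in knockdown control, and 6.81 CPM with SSTC3 against 1.45 CPM with DMSO.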

How the data were processed

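Reads of total RNA made into poly(A)+ libraries, were processed with HISAT2 (alignment), mm10 (genome build) and featureCounts (counting), as the submitters' processing notes list them. The deposited files hold raw counts per Ensembl gene, as whole numbers. The sources used here give no tool versions, strand setting or annotation. Overexpression files list 55401 features and the others 54532. Symbols, positions and exon lengths (all exons of a gene merged) come from GENCODE M21 (mm10), and all 10 genes were matched.

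CPM were computed by library total. Each comparison was fitted on its own 4 libraries with edgeR 4.0.16 in R 4.3.3 (filterByExpr, TMM factors, robust quasi-likelihood F test, Benjamini-Hochberg adjustment over all genes tested, threshold 0.05). The SE is the absolute log2 fold change divided by the square root of F. Each fit had 2 residual degrees of freedom, moderated across genes. The median prior degrees of freedom were 254 for SSTC3, 51.2 for overexpression and 59.5 for knockdown. Small p-values and SEs therefore rest largely on spread shared across genes. Differences between effects were contrasts in a fit of all 12 libraries with 1 coefficient per group. The scripts were tested on simulated data. Alternatives were RLE factors, library totals, DESeq2 1.42.0, a filter of 1 CPM in at least 2 libraries, no filter, a fit of all 12 libraries, a replicate block and each library left out. The alternatives for the differences were chosen after seeing the data.

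The genes, the lists and the tests were chosen with earlier results of these data known, so a pattern in them is no independent evidence. Named genes are the 10 members, all genes of the proteasome list, and some genes of the other lists. From each of those lists at most 4 genes per comparison were taken by smallest adjusted p, and given in other comparisons where this helps. H2-Aa, H2-Ab1, Ciita and Ifng were named for having few or no counts, which was seen first. The single cell markers named were also picked from their values. Replicates of a group differed by 2.29 to 3.61 times the sampling noise (chi-square per degree of freedom), so none was treated as a copy. Promoter windows come from RefSeq (GRCm38.p6), with none used here for Tap2 and Nlrc5. A result on 1 regulator gene is not reported here.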

Additional observations from a re-analysis of the deposited data

Results flagged for a closer look

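The changes of several genes differed between comparisons by the contrast in all 12 libraries, and each difference is on the log2 scale with its SE, as the first change minus the second. SSTC3 minus overexpression was 1.26 ± 0.13 for H2-K1, 1.41 ± 0.07 for H2-D1, 0.48 ± 0.05 for B2m, 2.25 ± 0.12 for Tap1 and 0.34 ± 0.06 for Tapbp, all with SSTC3 the larger. It was 1.59 ± 0.40 for Psmb9 (adjusted p = 0.000975) and 1.80 ± 0.37 for Nlrc5 (adjusted p = 4.7e-05), where SSTC3 was positive and overexpression negative. Neither of these overexpression changes passed on its own (adjusted p = 0.455 for Psmb9 and 0.207 for Nlrc5). For Tap2, SSTC3 minus overexpression was 0.40 ± 0.15 (adjusted p = 0.0356), although neither Tap2 change passed on its own. This call was lost under 7 of 12 alternatives (adjusted p up to 0.268).

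Knockdown minus SSTC3 was −1.26 for H2-K1, −1.52 for H2-D1, −0.65 for B2m, 0.75 for Tap2, 0.95 for Tapbp, 1.02 for Psmb8 and 2.67 for Psmb10.

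Knockdown minus overexpression was 2.03 ± 0.08 for Tap1, 1.16 ± 0.11 for Tap2, 1.29 ± 0.06 for Tapbp, 1.27 ± 0.29 for Psmb9, 2.58 ± 0.15 for Psmb10 and 1.97 ± 0.34 for Nlrc5. For B2m it was −0.17 ± 0.05 (adjusted p = 0.00474), with B2m at −0.10 in knockdown and 0.04 in overexpression in the fits of single comparisons. The difference for H2-D1 (−0.11 ± 0.06, adjusted p = 0.15) passed without CK1a overexpression replicate 2 (−0.16, adjusted p = 0.0494) and without knockdown control replicate 2 (−0.18, adjusted p = 0.00827). The comparisons also differ in cells and in label set, and the part of these in the differences was not tested.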

How the results depend on the processing

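For SSTC3 and for knockdown, the counts of members and of genes called stayed within 1.5 times under every alternative run. With 1 library left out they were 6 to 8 members and 6125 to 6718 genes for SSTC3, and 8 to 10 members and 6629 to 7562 genes for knockdown. For overexpression, 1863 genes were called, against 519 with DESeq2 and 1188 with all 12 libraries, and 1065 to 1478 with 1 library left out (1065 without control replicate 1 and 1220 without control replicate 2). Its count of members called was 1 with library totals and 0 to 2 with 1 library left out. Single members kept their direction and side of the threshold in 106 of 110 values for SSTC3, 94 of 97 for overexpression and 102 of 110 for knockdown; the exceptions are given in the report. Differences did so in 113, 119 and 118 of 120 values for SSTC3 minus overexpression, knockdown minus SSTC3 and knockdown minus overexpression. No result that had passed changed sign.

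Samples with the same replicate number did not deviate together (r = −0.0156 for SSTC3, −0.00962 for overexpression and 0.00501 for knockdown over genes), so the numbers were not used as pairs. With a replicate block, 7303 genes and 7 members were called for SSTC3, 1768 and 0 for overexpression, and 8066 and 8 for knockdown, where B2m did not pass. The scalings moved the median of all genes by at most 0.055 on the log2 scale. Depth limits Psmb8, Psmb9 and Nlrc5 in the SSTC3 and overexpression sets, where a library held at most 43 counts of Psmb8 or Psmb9 and at most 117 of Nlrc5. With 2 libraries per group, counting and library spread are estimated from few samples.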
